A study of Mus musculus with 8 samples.

Results

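The transmembrane channel-like (TMC) genes are 8 in the mouse, Tmc1 to Tmc8, and each was present among the 46603 rows of the count table. The members were taken by name. The family was chosen by the read counts of Tmc7 in this same comparison, which were close to 0 in EGFP-negative biliary cells, so the Tmc7 values are given as a description without a test. TMC proteins span the membrane many times and share their fold with the anoctamins and the TMEM63 channels. TMC1 and TMC2 form the pore of the mechanotransduction channel of inner ear hair cells, where they sit with TMIE, LHFPL5 and CIB2 below the tip link made of CDH23 and PCDH15. TMC6 and TMC8, also called EVER1 and EVER2, hold CIB1 and the zinc transporter ZnT1 in a complex in the endoplasmic reticulum, and their loss causes susceptibility of the skin to papillomaviruses. The function of TMC7 is less settled, and no role in bile ducts is taken for granted here.

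The RNA came from 4 mice that carried 1 copy of a reverse tetracycline transactivator at Rosa26 and 1 copy of H2B-EGFP (R26rtTA het/H2B-EGFP het) on a mixed C57BL/6 and CBA background. H2B-EGFP is a histone fused to a green fluorescent protein that doxycycline induces and cell division dilutes. All mice had doxycycline from birth to postnatal day 5 and were killed at 8 weeks, so both groups share genotype, treatment and age. From each liver, EGFP-positive label-retaining cells (LLRCs) and EGFP-negative cells (non-LRC) were sorted, which gave 4 libraries in each group, and the study's methods describe both gates as EpCAM-positive and CD45-negative. Total counts were between 7860021 and 9851819 in LLRC and between 4670132 and 8056103 in non-LRC libraries, and a floor of 3 counts stood for 0.291 to 0.626 CPM, the read count scaled to a common library size. Values of single libraries are given in the order of the mice JV602, JV621, JV624 and JV6314.

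The sorted identity was checked with 12 cholangiocyte markers, all of which were read in both groups, with a median log2 fold change (LLRC over non-LRC) of 0.35. By edgeR 0 of these markers were called and 1 had an unadjusted p below 0.05, the chloride channel gene Cftr at 1.43. Summed without Spp1, which made up 97.9% of their reads, they stood between 3010 and 3446 CPM in LLRC and between 2082 and 3830 CPM in non-LRC libraries. Of 14 endothelial markers, 12 were tested, and these had a median log2 fold change of -3.71. All 12 had an unadjusted p below 0.05, and 0 were called in edgeR's quasi-likelihood test. Of all 13605 genes in that test, 0 were called too, and 5.16% had an unadjusted p below 0.05. For 11 of the endothelial genes every LLRC library stood below every non-LRC library in CPM, as for 1.91% of all genes tested. The sum over the list was 31.7 to 66.2 CPM in LLRC and 235.4 to 722.6 CPM in non-LRC libraries. The non-LRC library of JV6314 stood apart by its acinar genes, 1103 CPM over 10 genes against at most 22.9 CPM elsewhere. Hepatocyte markers summed to between 2950 and 3463 CPM in LLRC and between 2198 and 6873 CPM in non-LRC libraries, with a median log2 fold change of -1.71 over the 12 genes, 6 of them at an unadjusted p below 0.05 and 0 called in edgeR. The stellate and fibroblast list was mostly Rgs5 (84.5% of its summed CPM), and its sum overlapped between the groups. Yet 5 of its 6 tested genes had negative log2 fold changes, with a median of -2.15 over the 6, 2 at an unadjusted p below 0.05 and 0 called in edgeR. Lrat, a retinol-storing enzyme gene of stellate cells, was at -2.98 with groups that did not overlap, and Dcn, which encodes the matrix proteoglycan decorin, was at -1.90. The sum of the neural list overlapped between the groups. The part of these other cell types in the values below was not tested. In bulk RNA, fewer cells of a type and less RNA per cell cannot be told apart.

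Among the 8 genes, 3 carried nearly all reads. Tmc4 had at least 176 counts in every library, Tmc6 had 1 to 130 counts, and Tmc7 had reads in LLRCs and next to none in non-LRC cells. Tmc1, Tmc2 and Tmc5 had at most 2 counts in any library, and Tmc3 and Tmc8 were read in some libraries at up to 27 and 11 counts. After the expression filter, 3 of the 8 (Tmc4, Tmc6 and Tmc7) remained among 13605 genes.

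**Figure D1:**
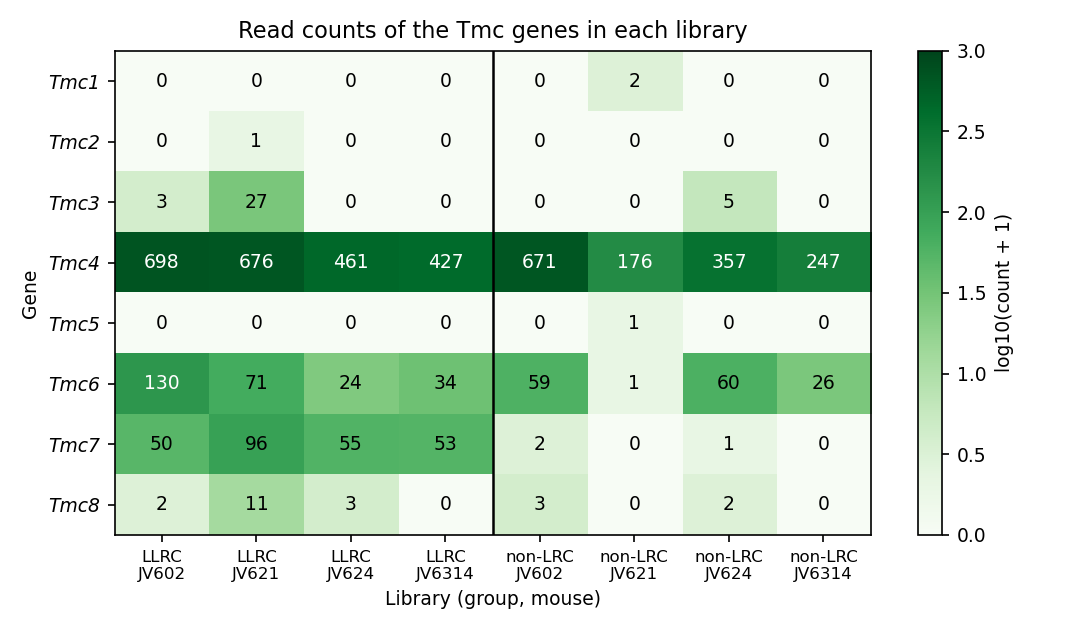
Read counts of the 8 Tmc genes (rows) in each of the 8 libraries (columns, LLRC left and non-LRC right of the line), with the raw count printed in each cell and the shade showing log10(count + 1). Tmc4 is dark in every column, Tmc7 has 50 to 96 counts on the left and 0 to 2 on the right, and Tmc1, Tmc2 and Tmc5 are empty or nearly so.

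The stretch upstream of Tmc7 is shown because this gene is the member whose reads separated the groups, and that of Tmc4 because it is the member with the highest level per kb. Both are read from RefSeq windows of GRCm38.p6 on the minus strand of chromosome 7. Of the 8 members, 6 had an entry in the RefSeq table. The Tmc7 stretch is chr7:118584728-118584936 and ends with the CRE. The Tmc4 stretch is chr7:3677554-3677753 and ends at the base before its start. Capitals mark a cAMP response element (CRE, TGACGTCA) or a GC box (GGGCGG or its reverse complement CCGCCC).
Tmc7: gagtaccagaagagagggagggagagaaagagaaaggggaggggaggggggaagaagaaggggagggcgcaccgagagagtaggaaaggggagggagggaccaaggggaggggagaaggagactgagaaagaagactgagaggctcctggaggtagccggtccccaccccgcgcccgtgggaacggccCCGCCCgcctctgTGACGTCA
Tmc4: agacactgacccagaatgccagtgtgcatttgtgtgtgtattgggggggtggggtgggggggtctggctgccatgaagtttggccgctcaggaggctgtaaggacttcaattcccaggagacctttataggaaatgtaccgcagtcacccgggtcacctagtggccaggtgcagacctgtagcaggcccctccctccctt

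The motifs searched on both strands in the 250 bases before the RefSeq start were the CRE, the GC box, the E-box CACGTG and the TATA box TATAAA. No letters of these motifs overlapped in the hits found. The CRE of Tmc7, 49 bases before the RefSeq start, is a motif that 1.55% of all 32851 windows hold. GENCODE places the start of Tmc7 50 bases farther upstream, so that by that annotation the CRE lies at the very beginning of the first exon. The GC box of Tmc7, found in 32.7% of windows, lies 62 bases before the start, and the stretch of Tmc4 held neither motif but a TATA box in reverse orientation at 77 bases, a motif of 12.4% of windows. The Tmc7 window had 14 CpG dinucleotides, more than 70.6% of windows, and the Tmc4 window had 3, against a median of 6. These matches describe the letters of the windows and say nothing of binding.

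Tmc7 was read in all 4 LLRC libraries and hardly at all in the non-LRC libraries. LLRC counts were 50, 96, 55 and 53, or 4.85, 11.4, 8.09 and 5.88 CPM. Non-LRC counts were 2, 0, 1 and 0, or 0.250, 0, 0.158 and 0 CPM. The lowest LLRC library was thus far above the highest non-LRC library, and the difference had the same sign in 4 of 4 mice. Tmc7 averaged 7.54 ± 2.88 CPM for LLRCs against 0.102 ± 0.124 CPM for the EGFP-negative cells (SD, n = 4 each). As every non-LRC library was below 3 counts, the fold is given against a floor of 3 counts per library, and Tmc7 was at least 14.6-fold higher in LLRCs. The fitted log2 fold change was 5.84 (standard error 0.89), and 10 of the 13605 genes had a larger one. Without the non-LRC library of JV602, which held 2 of the 3 non-LRC reads, it was 6.62.

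Of the reads of the whole family, Tmc7 took 5.66%, 10.9%, 10.1% and 10.3% in the 4 LLRC libraries, in the same order of mice. Its share in the non-LRC libraries was 0.272% of 735 reads, 0 of 180, 0.235% of 425 and 0 of 273. The counts allowed non-LRC shares of up to 0.979%, 2.03%, 1.30% and 1.34% (exact Clopper-Pearson 95% intervals), given as the precision of each library and not as a test between the groups. Intervals and floors here cover counting error only.

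**Figure D2:**
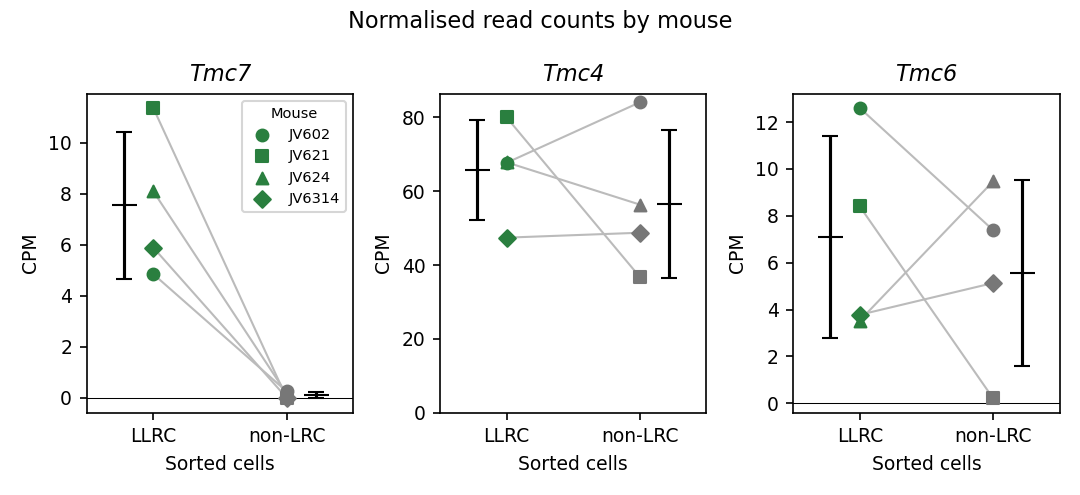
Normalised read counts (CPM, linear axis) of Tmc7, Tmc4 and Tmc6 in LLRC (green) and non-LRC (grey) libraries, with grey lines joining the libraries of a mouse, one marker shape per mouse, and black bars for the mean and SD of 4 libraries. All 4 lines fall for Tmc7, while for Tmc4 and Tmc6 some rise and some fall between the groups.

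Low-abundance genes were missing from some non-LRC libraries more often than from others. Taking the 4407 genes whose mean level in LLRCs was within 2-fold of that of Tmc7 (3.77 to 15.1 CPM), 26.05% had 2 counts or fewer in the non-LRC library of JV621 and 14.86% in that of JV6314. The share was 3.24% in JV602 and 3.27% in JV624, and in LLRC libraries, whose levels chose these genes, between 0.43% and 1.38%. With 0 counts, as Tmc7 had in the non-LRC libraries of JV621 and JV6314, there were 21.9% and 11.01% of these genes. Of the 4407 genes, 25, or 0.57%, had 2 counts or fewer in every non-LRC library. The part of missing low-abundance RNA in the Tmc7 difference was not tested.

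The limits that Tmc7 itself sets, at least 50 counts in every LLRC library and at most 2 in every non-LRC library, were met by Tmc7 and no other gene of the table, although 7973 genes had 50 counts or more in every LLRC library. With at least 40 counts in place of 50, Spdya, a cell cycle kinase activator, was the second such gene. At 30 counts Oprk1, an opioid receptor, was the third, and at 20 counts there were 5 genes. No gene met the limits of Tmc7 with the groups exchanged. The limits are raw counts, and totals were 4670132 to 8056103 in non-LRC against 7860021 to 9851819 in LLRC libraries. By depth alone the exchanged limits were therefore harder to meet. Since the values of Tmc7 fixed these limits, its place among them is a description.

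Reads of Tmc7 could be assigned without a competing gene. It lies at chr7:118535841-118584736 of GRCm38 on the minus strand, is protein-coding, and shares 0 exon bases with any other annotated gene. None of the 5724 different stretches of 36 bases in its transcripts occurred in the transcripts of another gene on either strand. This differs from Tmc3 and Tmc4, where 42.3% and 14.3% of such stretches did.

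The genes beside Tmc7 did not share its pattern of counts. Tmc5 starts 12.56 kb from the Tmc7 start and is transcribed away from it, so that the 2 genes lie head to head. Tmc5 had 0 counts in every LLRC library and 1 count in all non-LRC libraries together. On the other side, 2485 bases beyond the end of Tmc7, Coq7, which encodes an enzyme of coenzyme Q synthesis, averaged 25.7 ± 1.84 CPM for LLRCs against 27.1 ± 10.9 CPM for the EGFP-negative cells (SD, n = 4 each). The log2 ratio was -0.08 (SE 0.36, adjusted p = 0.9999 in edgeR's quasi-likelihood test). Gde1, a glycerophosphodiester phosphodiesterase gene beyond Tmc5, averaged 39.1 ± 9.42 against 31.7 ± 8.76 CPM (SD, n = 4 each), a log2 ratio of 0.30 (SE 0.33, adjusted p = 0.9999, edgeR).

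**Figure D3:**
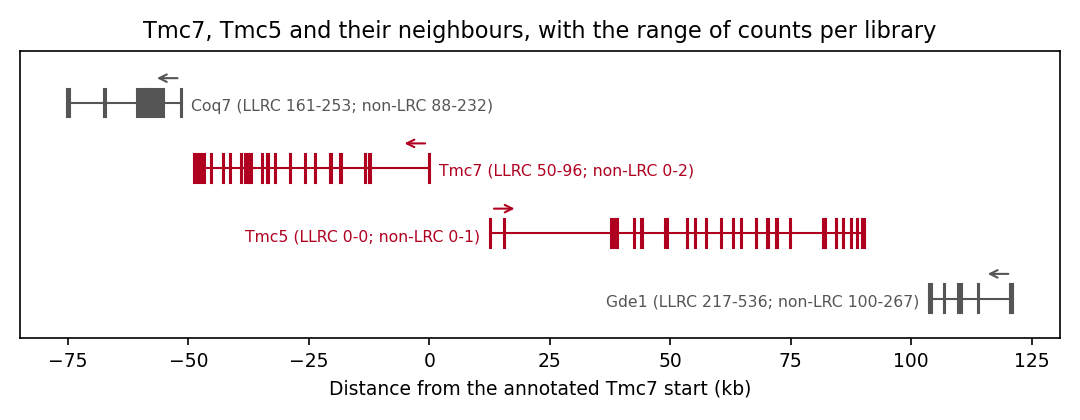
Exons (boxes) of Coq7, Tmc7, Tmc5 and Gde1 drawn to scale against the distance from the annotated Tmc7 start in kb, with arrows for the direction of transcription and the range of counts per library in each group beside each name. Tmc7 and Tmc5 point away from each other, and of the 4 genes Tmc7 is the one whose ranges, 50 to 96 and 0 to 2, do not overlap.

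Tmc4 had the highest level per kb of exon in every library. LLRC counts were 698, 676, 461 and 427, and non-LRC counts were 671, 176, 357 and 247. Tmc4 averaged 65.7 ± 13.5 CPM for LLRCs against 56.5 ± 20.1 CPM for the EGFP-negative cells (SD, n = 4 each), and the groups overlapped. The log2 ratio was 0.22 (SE 0.33, adjusted p = 0.9999 in edgeR's quasi-likelihood test), with LLRCs higher in 2 of 4 mice. The largest gap between the libraries of a mouse was in JV621, at 1.12 on the log2 scale, and without both libraries of JV621 the fold change was -0.043. Tmc4 made up 76.6% to 84.9% of the family's reads in LLRC and 84.0% to 97.8% in non-LRC libraries. The gene lies at chr7:3665790-3677553 on the minus strand. Of its exon bases, 15.1% are shared with Leng1 on the same strand or with Gm15929 on the opposite strand. Counting without strand cannot assign reads there, and for Leng1 knowing the strand would not change this.

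Tmc6 went up in some mice and down in others. LLRC counts of Tmc6 were 130, 71, 24 and 34, and non-LRC counts were 59, 1, 60 and 26. JV621 had the widest gap, 71 against 1, and JV624 and JV6314 had the opposite sign in CPM. It averaged 7.08 ± 4.31 CPM for LLRCs against 5.55 ± 3.98 CPM for the EGFP-negative cells (SD, n = 4 each), a log2 ratio of 0.35 (SE 0.88, adjusted p = 0.9999 in edgeR's quasi-likelihood test). It turned to -0.039 without the non-LRC library of JV621, to -0.081 without the LLRC library of JV602 and to -0.13 without both libraries of JV621, none of them past the threshold.

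Tmc8, the partner of Tmc6, was close to the floor. LLRC counts of Tmc8 were 2, 11, 3 and 0, and non-LRC counts 3, 0, 2 and 0. The 5′ ends of Tmc6 (chr11:117765988-117782198, minus strand) and Tmc8 (chr11:117782076-117793110, plus strand) overlap head to head, and the genes share 40 exon bases. Both are known to be expressed in lymphocytes. Of 19 leukocyte markers, Cd3d, Cd3e, Cd79a, Nkg7 and Rac2 had 0 counts in every library, while Ptprc, which encodes the CD45 that bead depletion and the sort gate were meant to remove, had 5, 34, 14 and 59 counts in LLRC and 0, 0, 0 and 7 in non-LRC libraries. Other genes of this list stood the other way. Fcer1g, an Fc receptor subunit gene, had LLRC counts of 14, 2, 3 and 3 and non-LRC counts of 15, 20, 53 and 112, and Lyz2, the myeloid lysozyme gene, had 3 counts over all LLRC against 43 over all non-LRC libraries, and neither gene overlapped between the groups in CPM. Of 5 leukocyte genes tested, 4 had negative log2 fold changes, 2 had an unadjusted p below 0.05 and 0 were called in edgeR. The whole list summed to 18.5 to 37.0 CPM in LLRC and 29.2 to 51.1 CPM in non-LRC libraries, to which Csf1r gave a mean of 17.3 and 19.3 CPM, and its part in the Tmc6 and Tmc8 reads was not tested.

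The hair cell genes Tmc1 and Tmc2 were at or below the floor everywhere. Tmc1 (chr19:20783458-20954202) had 2 counts in the non-LRC library of JV621 and 0 elsewhere, and Tmc2 (chr2:130195194-130264445) had 1 count in the LLRC library of JV621. A difference between the groups was not detectable at this depth for these genes or for Tmc5. Tmc3 had 3, 27, 0 and 0 counts in LLRC and 0, 0, 5 and 0 in non-LRC libraries, so that its mean in LLRCs rested on JV621. Without an expression filter the log2 ratio was 2.05 (SE 1.93, adjusted p = 0.671 in edgeR's quasi-likelihood test). Exons of Tmc3 share 43.9% of their bases with Gm16638 on the opposite strand, which had 33 counts in the non-LRC library of JV602 and at most 11 in any other.

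Compared per kb of exon, the order of the members in LLRCs was Tmc4, Tmc6, Tmc7, Tmc8, Tmc3 and Tmc2, with Tmc1 and Tmc5 at 0. Tmc4 stood at 15.4 ± 3.15 CPM per kb (SD, n = 4) and did not overlap with any other member. Tmc6 and Tmc7, at 1.73 ± 1.05 and 1.31 ± 0.50 CPM per kb, overlapped, and in JV624 and JV6314 Tmc7 was the higher of the pair. In non-LRC cells Tmc4 was at 13.2 ± 4.69 and Tmc6 at 1.36 ± 0.97 CPM per kb, followed by Tmc8 at 0.0566 ± 0.0658. Tmc7 stood at 0.0177 ± 0.0215 CPM per kb in non-LRC cells and did not differ beyond the spread from Tmc8, Tmc3 (0.0219 ± 0.0437), Tmc1 or Tmc5.

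Across all genes tested, 0 had an adjusted p below 0.05 in edgeR's quasi-likelihood test (percent called 0), and 702, or 5.16%, had an unadjusted p below 0.05. DESeq2 called 221 genes and edgeR's exact test 159, while limma called 0. Of the members other than Tmc7, 2 of 7 were tested and 0 were called by any of these tests, and neither had an unadjusted p below 0.05. Every LLRC library stood above every non-LRC library for 292 genes, 2.15% of those tested, of which Tmc7 is 1, and the reverse held for 260, or 1.91%. The median log2 fold change was 0.28 over the 2 members tested and -0.01 over all genes.

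**Figure D4:**
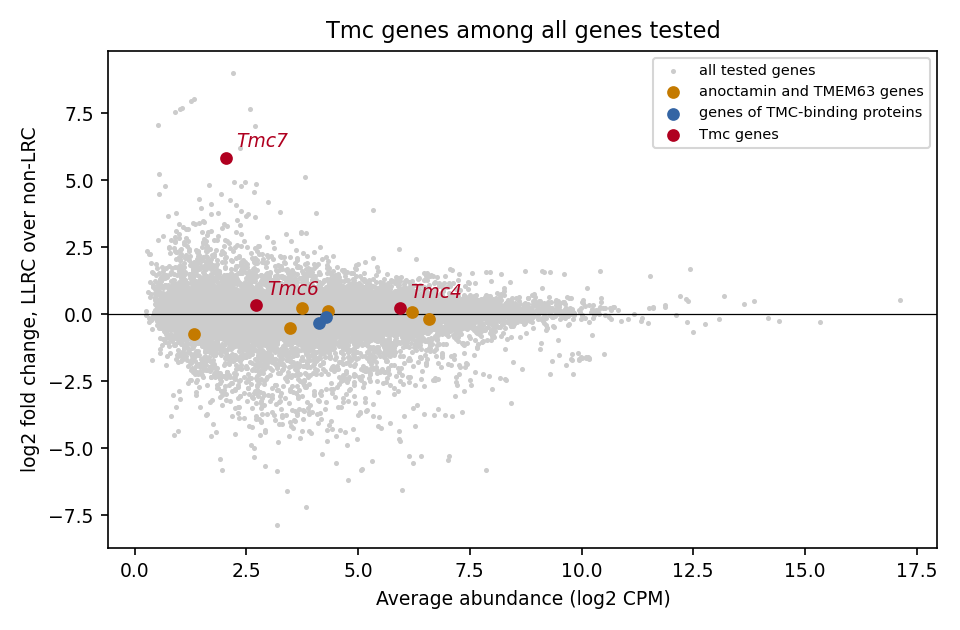
The log2 fold change (LLRC over non-LRC) of the 13605 tested genes against their average abundance in log2 CPM, with Tmc genes in red, anoctamin and TMEM63 genes in orange and genes of TMC-binding proteins in blue. Tmc7 lies at 5.84, while Tmc4, Tmc6 and the coloured relatives lie within the grey band near 0.

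The proteins known to bind TMC channels gave few reads beside those of the skin complex. Of 9 such genes, 2 were tested and 0 were called, with 0 at an unadjusted p below 0.05. These were the partners of TMC6 and TMC8. Cib1, which encodes a small calcium and integrin-binding protein, averaged 18.5 ± 5.02 CPM for LLRCs against 19.8 ± 15.9 CPM for the EGFP-negative cells (SD, n = 4 each), a log2 ratio of -0.10 (SE 0.56). For Slc30a1, which encodes ZnT1, the log2 ratio was -0.34 (SE 0.66). The adjusted p was 0.9999 for both in edgeR's quasi-likelihood test.

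The partners of the hair cell channel were near or at the floor. Lhfpl5 and Cib4 had 0 counts in every library, and Cib2, Cib3, Tmie and Cdh23 had at most 26 counts in any. Pcdh15, a tip link cadherin, had 22, 2, 1 and 1 counts in LLRC and 0 in each non-LRC library. Its groups did not overlap. It did not pass the filter, and the unfiltered edgeR fit gave 0.633 as adjusted p. Most of its 26 reads came from JV602, and the other 3 LLRC libraries were below the floor.

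The relatives in fold were compared next. Of 13 anoctamin and TMEM63 genes, 6 were tested and 0 were called (0 with an unadjusted p below 0.05 in edgeR's quasi-likelihood test). Their median log2 fold change was -0.05, with values from -0.72 to 0.24. Ano1, the calcium-activated chloride channel of secretory epithelia, averaged 75.8 ± 29.0 CPM for LLRCs against 72.4 ± 17.8 CPM for the EGFP-negative cells (SD, n = 4 each). The lipid scramblase gene Ano6 stood at 89.8 ± 13.0 and 100.5 ± 53.1 CPM. For Tmem63a the means were 20.5 ± 10.4 and 19.0 ± 8.93 CPM, and Ano10 had 55 to 211 counts in LLRC and 0 to 217 in non-LRC libraries. In all of these the groups overlapped.

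Ano3, which did not pass the filter, had a pattern of its own, and is named after its values were seen. LLRC counts of Ano3 were 38, 10, 42 and 0, and non-LRC counts 3, 0, 0 and 0. LLRCs were higher in 3 of 4 mice, and JV6314 had no read in either library. Without a filter the adjusted p was 0.633 in edgeR's quasi-likelihood test.

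Other channels that respond to force were also compared. Of 8 genes, 3 were tested and 0 were called, again with 0 at an unadjusted p below 0.05 in edgeR's quasi-likelihood test. Pkd2, which encodes the polycystin channel of the cholangiocyte cilium, had 2677 to 3575 counts in LLRC and 1088 to 2579 in non-LRC libraries, with LLRCs higher in 3 of 4 mice in CPM. The log2 ratio was 0.42 (SE 0.33, adjusted p = 0.9999, edgeR). Pkd1 and the calcium channel gene Trpv4 had log2 fold changes of -0.94 and -0.52 (standard errors 1.05 and 1.43). Piezo1 had at most 23 counts and Piezo2 at most 19 in any library.

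Of the 12 protein-coding genes nearest to the members on either side, 10 were tested, with a median log2 fold change of -0.06 and 0 called. One, Aldh1a7 beside Tmc1, had an unadjusted p below 0.05 in edgeR's quasi-likelihood test, with a log2 ratio of -1.71 (SE 0.67, adjusted p = 0.862). Zfand5, Snrpb and Nop56, which with Aldh1a7 flank Tmc1 and Tmc2, had log2 fold changes of -0.09, -0.05 and 0.01.

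**Figure D5:**
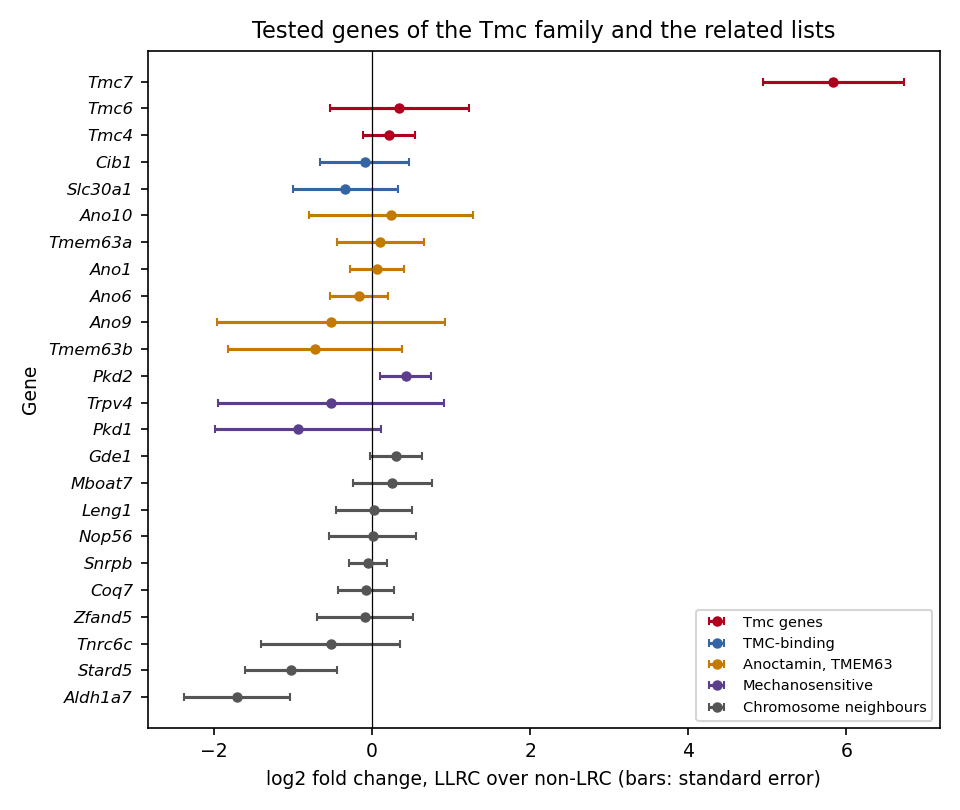
The log2 fold change (LLRC over non-LRC) with its standard error for the 24 tested genes of the Tmc family, the TMC-binding proteins, the anoctamin and TMEM63 families, the mechanosensitive channels and the chromosome neighbours. Tmc7 at 5.84 stands apart from the other 23 genes, which lie between -1.71 and 0.42.

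The genes whose log2 CPM followed Tmc7 most closely over the 8 libraries were Pbk, Gm29170, Gm4117, Spdya and Cxcl10, with Pearson's r of 0.99, 0.99, 0.98, 0.98 and 0.98. Each had few or no reads in non-LRC cells, as Tmc7 did. Pbk, a mitotic kinase gene, had 17, 35, 25 and 27 counts in LLRC libraries and 0 in non-LRC libraries. Gm4117 had 75, 121, 85 and 127 counts in LLRC and 7, 0, 4 and 0 in non-LRC libraries, with JV602 and JV624 again the libraries with reads. The libraries of a mouse share an animal and those of a group share a sort, so these values carry no p.

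The genes closest to Tmc4, the member with the highest level per kb, were Faap24, Ftx, 2810408A11Rik, Top3b and Fam126b, with Pearson's r between 0.96 and 0.98 over the same 8 libraries. All 5 had their lowest non-LRC count in JV621, where Tmc4 was also lowest. Fam126b, for instance, had non-LRC counts of 958, 60, 410 and 181.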

How the data were processed

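The authors mapped reads at a service facility (aligner not given in the sources used here) and counted them with HTSeq without strand on Ensembl exons of GRCm38.p4, and they deposited raw counts per gene. A deposited table of their edgeR comparison (fold changes, abundances and p-values) was not used. The analysis here used edgeR 4.0.16 in R 4.3.3: filterByExpr, TMM scaling and the quasi-likelihood test on a model of group alone, Benjamini-Hochberg adjustment over all genes tested and a threshold of 0.05. Standard errors are the fold change over the root of the F statistic. DESeq2 1.42.0 and limma 3.58.1 served as alternatives, and the pipeline was tested on simulated data. Depth limits low genes: the smallest library held 4670132 counts.

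Symbols, positions and exon lengths came from GENCODE M21 (GRCm38) for 46005 of 46603 identifiers. The column names hold GFP or noGFP and a number but no mouse. They were matched to samples by that word and the sample number in the labels' descriptions, and the mouse in the sample title then pairs the libraries, so all values per mouse rest on this match. The departures from the group mean of libraries from the same animal had correlations of 0.096 (JV602), 0.074 (JV621), 0.003 (JV624) and 0.171 (JV6314). No values for pairs of different animals stand beside these correlations, so they cannot decide whether the match is right.

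The rule named all 8 members, of each list those past the threshold or the 4 with the highest mean CPM, the neighbours of Tmc7, and the 5 genes most correlated with Tmc7 and with the member of highest level per kb. The marker lists were given as sums and counts instead, and the single markers named from them, like other genes outside the rule (among them Ano3 and Pcdh15), were chosen after their values were seen. The members and lists were chosen with earlier results of these data known. Promoter windows are RefSeq's.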

Additional observations from a re-analysis of the deposited data

Results flagged for a closer look

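In 4 of 32 groups of 4 values, 1 library lay far from the rest of its group. For normally distributed values chance alone marks about 1 in 20 groups in this way, a rate that does not hold for counts near 0, where a group with reads in 1 library is always marked. Tmc3 had 3.19 CPM (27 counts) for JV621 among LLRCs and 0.789 CPM (5 counts) for JV624 among non-LRC cells, each with few or no reads in the rest of its group. The acinar genes summed to 1103 CPM in the non-LRC library of JV6314. The cholangiocyte markers without Spp1 summed to 3446 CPM in the LLRC library of JV624, the highest of that group. The members' values in these libraries are given above.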

How the results depend on the processing

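The number of genes called, 0 in edgeR's quasi-likelihood test with 702 at an unadjusted p below 0.05, was 11 without the expression filter, 221 in DESeq2 and 159 in edgeR's exact test. Leaving out libraries, singly or both of a mouse, gave 0 to 6, the 6 without the non-LRC library of JV602. With the mouse as a replicate block it was 0, and the block changed no call of a member. The log2 fold change of Tmc7 was 5.92 with the block, 5.41 in limma, and between 5.27 (without both libraries of JV621) and 6.75 (without both of JV602) over libraries left out. The log2 fold change of Tmc4 turned to -0.17 and that of Tmc6 to -0.16 when counts were scaled to the cholangiocyte markers, a setting chosen after seeing the data, under which the median of all genes was -0.42 and Tmc7 stood at 5.52. With libraries left out, Tmc4 was between -0.043 and 0.47, the log2 fold change of -0.043 being without both libraries of JV621. Tmc6 was between -0.13 (without both of JV621) and 0.95 (without both of JV624), and at -0.081 without the LLRC library of JV602 and -0.039 without the non-LRC library of JV621. Over all alternatives the lowest adjusted p was 0.837 for Tmc4 and 0.924 for Tmc6. By Spearman's rho, 0 of the 5 genes most like Tmc7 were again among the first 5, but 20 genes had a rho at or above the fifth, so ties leave these first 5 not unique. For Tmc4 the first 5 by rho held 1 of its 5, with 8 genes at or above the fifth rho. The other Tmc members, the TMC-binding proteins, the anoctamin and TMEM63 genes, the mechanosensitive channels and the neighbours had 0 called genes under each of the 21 alternatives. The cell type marker lists were not run under them. Without the filter, Tmc1, Tmc2, Tmc3, Tmc5 and Tmc8 had adjusted p from 0.633 to 0.777 in edgeR. Which cause lay behind the differing counts of called genes was not tested.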
